A study of Mus musculus with 12 samples.

Results

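The genes described here encode 9 nuclear receptors for thyroid hormone (Thra, Thrb), retinoids (Rxra, Rxrb, Rxrg, Rara, Rarb, Rarg) and vitamin D (Vdr), together with Klf9, a zinc-finger transcription factor gene that thyroid hormone induces. They were chosen by name, and every H4K8ac peak that the authors annotated to one of them was taken. In all, 192 of 269580 peaks were annotated to these genes, and 9 of the 10 genes had a peak in at least 1 library, among 23433 genes named in the lists. Vdr had a peak in 0 of 6 libraries.

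The mark measured was H4K8ac, an acetyl group on lysine 8 of histone H4, which was located by chromatin immunoprecipitation and sequencing in oligodendrocyte progenitor cells (OPCs), the glial cells that give rise to the myelin-forming oligodendrocytes. The cells were sorted from forebrain of PdgfrαH2BEGFP mice, whose nuclear green fluorescent reporter follows Pdgfra, a receptor gene that OPCs express, and all groups carry this reporter. One group was neonatal, at postnatal day 5, and the other adult, at postnatal day 60. Each age had 3 H4K8ac libraries and 3 inputs, and the inputs were not analysed here. The labels name biological replicates but do not say whether each came from 1 animal or from a pool, so the spread between libraries may be partly technical.

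Nuclear receptors are transcription factors that a small lipophilic ligand switches. Thyroid hormone, retinoic acid and vitamin D receptors bind DNA as pairs with a retinoid X receptor (RXR), at repeated hexamer half-sites whose spacing differs between partners. Without ligand the thyroid hormone and retinoic acid receptors recruit corepressors that bring histone deacetylases, and with ligand they recruit coactivators, many of which are or bring histone acetyltransferases. Thyroid hormone and retinoic acid are both known to move OPCs out of division and into differentiation.

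The upstream sequences of 3 members are shown because they stand for different cases: Klf9, with a peak at its start in every library, Vdr, with none, and Rarb, the only one of the 9 members with a promoter window to hold a receptor repeat of the searched kind. They are the 250 bases before a transcript start from RefSeq (build GRCm38.p6), in the direction of transcription. For Klf9 and Vdr this is the start of the gene, and for Rarb a start inside the span of its longest transcripts. In Klf9 (chr19:23140976-23141225, plus strand) and Vdr (chr15:97908297-97908546, minus strand) the capitals mark CpG dinucleotides, 18 and 11 of them. In Rarb (chr14:16575477-16575726, minus strand) the capitals mark both half-sites of a direct repeat with 5 bases between them, the spacing known for pairs of RXR with a retinoic acid receptor.
Klf9: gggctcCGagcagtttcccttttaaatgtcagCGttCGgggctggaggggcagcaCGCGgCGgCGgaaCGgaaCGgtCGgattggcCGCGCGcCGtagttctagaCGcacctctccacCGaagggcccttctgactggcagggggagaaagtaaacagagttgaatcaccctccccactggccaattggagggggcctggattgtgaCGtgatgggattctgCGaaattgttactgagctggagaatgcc
Vdr: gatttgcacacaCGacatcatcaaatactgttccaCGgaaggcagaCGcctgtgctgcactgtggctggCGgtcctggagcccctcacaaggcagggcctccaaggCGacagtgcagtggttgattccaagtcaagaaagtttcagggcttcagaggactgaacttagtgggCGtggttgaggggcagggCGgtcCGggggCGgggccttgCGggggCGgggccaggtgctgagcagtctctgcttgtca
Rarb: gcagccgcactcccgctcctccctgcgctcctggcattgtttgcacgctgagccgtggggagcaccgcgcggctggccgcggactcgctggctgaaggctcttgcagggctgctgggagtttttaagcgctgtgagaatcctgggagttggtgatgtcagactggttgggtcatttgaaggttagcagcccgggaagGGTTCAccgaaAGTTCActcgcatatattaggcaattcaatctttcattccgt

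The search covered 300-base windows (250 bases before to 50 after a RefSeq transcript start) on both strands for 2 half-sites in the same orientation, 1 to 5 bases apart. A half-site was the consensus hexamer AGGTCA, or the variant hexamer GGGTCA, or the variant hexamer AGTTCA, or the variant hexamer GGTTCA. With 5 bases between them the repeat was present in 1 of 17 windows of 9 members (all but Thra), that of Rarb, and in 0.0974% of all 32851 windows. Spacings of 1, 2, 3 and 4 bases were present in 0 of the 17 windows, and in 0.222%, 0.268%, 0.0396% and 0.0822% of all windows. A match is a description of letters and not evidence of binding. The CpG count of the richest window was 55 for Rxra, 47 for Rxrb, 37 for Thrb, 28 for Klf9, 21 for Rara, 17 for Rarb, 15 for Vdr, 13 for Rxrg and 12 for Rarg, with a median of 7 over all windows. That median counts single windows, so it is no like measure for the richest of several. The other windows of the members ran from 1 (Rxra) to 37 (Rxrb). Rarg, the lowest by richest window, had peaks in every library, and Vdr, above it, in none.

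Peaks were called in each library separately, and the lists differed in length. The neonatal libraries 1, 2 and 3 had 9097, 31189 and 7353 peaks, and the adult libraries 72278, 72661 and 77002. Neonatal library 2 stood apart from the other neonatal libraries. Read depth is not in the files, so its part in this difference was not tested. For this reason 2 measures were used for each gene: the kilobases (kb) covered by its assigned peaks in the full list, and the same after each list was shortened to its 7353 strongest peaks by the authors' p-value. A gene was called higher at one age when all 3 libraries of that age lay above all 3 of the other. The exact two-sided permutation test of 3 against 3 libraries has a smallest p-value of 0.1, so no value here could reach 0.05. In sorted but bulk chromatin, more cells carrying the mark at a site and more mark per cell cannot be told apart.

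In the full lists 5 members, Thra, Thrb, Rxra, Rxrb and Klf9, were called higher in adult libraries and 0 members higher in neonatal libraries. Over all 23433 genes 60.0% were called higher in adult and 0.303% higher in neonatal libraries, so the members' share lay near the background. With lists of equal length, 3 members, Thra, Rxra and Klf9, were called higher in adult libraries, where 34.4% of 10859 genes were. Rarg alone was then called higher in neonatal libraries, where 4.64% of genes were. Promoter peaks, those the authors placed within 3000 bp of an annotated transcript start, gave the same members as called. The background for promoter peaks was 60.1% and 0.399% in the full lists and 35.0% and 4.67% at equal length.

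**Figure D1:**
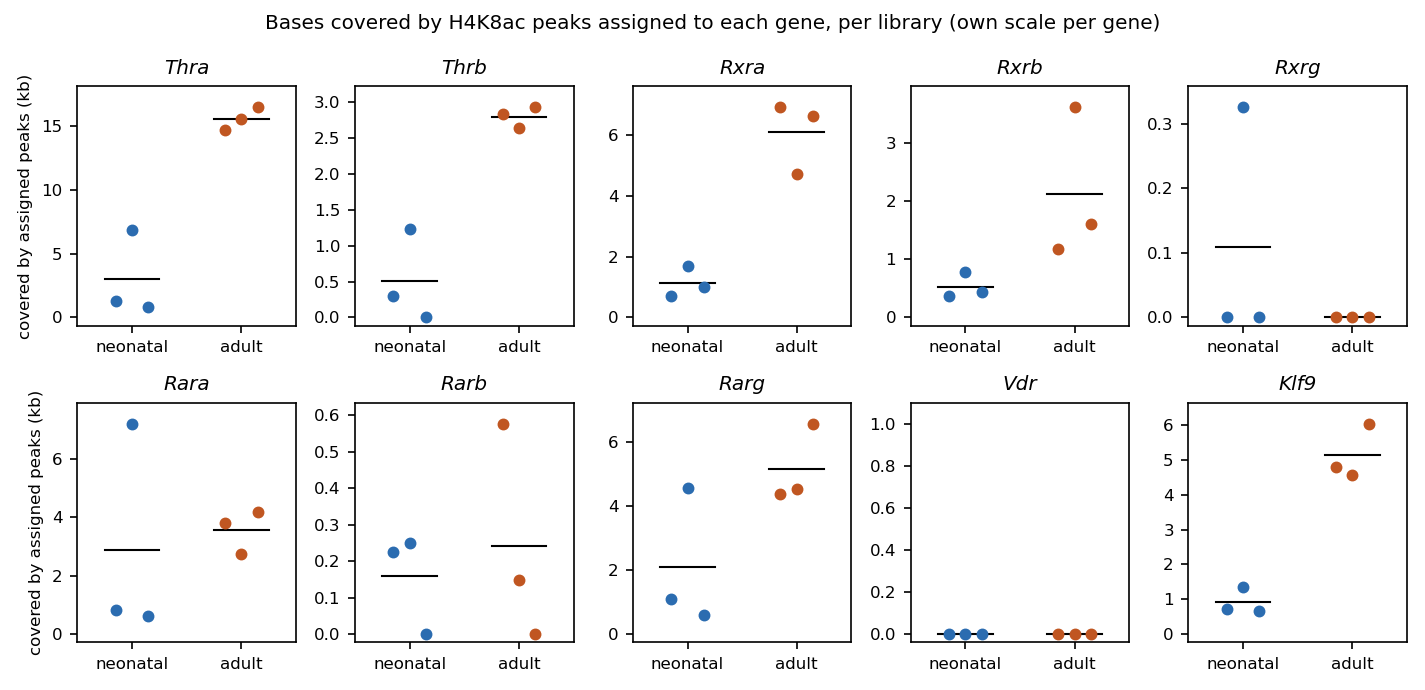
Kilobases covered by the H4K8ac peaks assigned to each gene (y axis, own scale for each gene) in each neonatal and adult library (points, replicates 1 to 3 from left to right), with the mean of each age as a line. The adult points lie above all neonatal points for Thra, Thrb, Rxra, Rxrb and Klf9, while neonatal library 2 is the highest of all for Rara, and Vdr is at 0 throughout.

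The number of peaks on the members was less different between ages than the number of all peaks. The members held 15, 42 and 10 peaks in neonatal libraries 1 to 3 and 46, 42 and 37 in the adult libraries. Taken as geometric means, the adult libraries had a ratio to the neonatal ones of 2.25 for the members and 5.79 for all peaks. At equal list length, where every list holds 7353 peaks, the ratio for the members was 0.567. Without neonatal library 2 it was 3.39 for the members. The neonatal lists left then held 9097 and 7353 peaks, so the 5.79 for all peaks is not the background of that value. Without that library 7 members were called higher in adult libraries, the additional ones being Rara and Rarg, and 74.6% of 22176 genes were called the same way. Single adult peaks were wide. At Thra, adult library 3 covered 16.497 kb with 4 peaks and neonatal library 2 covered 6.892 kb with 11.

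Thra encodes thyroid hormone receptor alpha, the main thyroid hormone receptor of brain, and lies at chr11:98740776-98769006 (GRCm38.p6, plus strand). Its peaks covered 1.286, 6.892 and 0.788 kb in the neonatal libraries and 14.694, 15.531 and 16.497 kb in the adult libraries. The adult libraries were close to each other and all above the neonatal ones, of which library 2 was the highest. The neonatal mean was 2.99 ± 3.39 kb and the adult mean 15.6 ± 0.902 kb (SD, n = 3 each). They differed by 12.6 kb (exact permutation p = 0.1, Benjamini-Hochberg adjusted p = 0.166 over all genes). The median difference over all genes was 0.661 kb.

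The adult domain at Thra was nearly continuous. Apart from a small peak further upstream in each library, it began 0.890, 0.901 and 0.989 kb before the start of this 28.2 kb gene and ended 14.4, 14.5 and 14.7 kb inside it in adult libraries 1 to 3. Neonatal libraries 1 and 3 had peaks only around the start, and neonatal library 2 had 11 separate peaks that reached 11.2 kb. The widest Thra peak measured 7.384, 7.544 and 7.817 kb in the adult libraries, the 32nd, 72nd and 264th widest of each list, whose median widths were 359, 371 and 440 bp. By the authors' p-value its strongest peak ranked 100, 231 and 90 in the adult lists and 387, 1198 and 1904 in the neonatal lists; ranks in lists of different length show no change. With the 7353 strongest peaks of each list, Thra still had 1.34 kb in neonatal and 13.7 kb in adult libraries.

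The authors' deposited table of differential sites gave Thra 3 sites, all higher in adult cells. In the authors' deposited table the site of smallest p-value, chr11:98751495-98751894, 10.9 kb inside the gene and near an annotated inner start, had a log2 fold change of 3.22 (adjusted p = 1.79e-15). Peaks overlapped it in 3 adult libraries and 1 neonatal library. The authors' deposited table gave a smaller value, 1.90, for the site just after the gene start, which all 6 libraries covered with a peak. The 3′ end of Thra overlaps the neighbouring clock gene Nr1d1 on the other strand, and peaks there were assigned to Nr1d1 in adult libraries 1 and 3 and in 0 neonatal libraries. ChIP-seq has no strand, so peaks in the overlap cannot be attributed to either gene alone. In adult library 3, peaks assigned to Nr1d1 began as early as 21.8 kb inside Thra.

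Thrb encodes thyroid hormone receptor beta, whose level is known to rise as oligodendrocytes mature. It lies at chr14:17659225-18040097, and its peaks covered 0.305, 1.229 and 0 kb in the neonatal libraries and 2.835, 2.636 and 2.935 kb in the adult libraries. All adult values lay above all neonatal ones, and neonatal library 3 had no peak. The difference of 2.29 kb (exact permutation p = 0.1, adjusted p = 0.166) was lost at equal list length, where all 6 libraries were at 0. The strongest Thrb peak ranked 16738, 11867 and 9493 in adult libraries 1 to 3, with −log10 q-values of 11.6, 17.9 and 27.8. In neonatal libraries 1 and 2 it ranked 7639 and 9525, with −log10 q-values of 3.14 and 11.6. All of these ranks lay beyond the cut. With peaks of q-value under 0.005 the difference was 2.19 kb and Thrb remained called.

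Part of the adult mark assigned to Thrb lay outside the gene. Its distal intergenic peaks covered 0 kb in each neonatal library and 1.065, 1.045 and 1.207 kb in the adult libraries, and 47.1% of 6187 genes with distal peaks were called higher in adult libraries. Distal sites of the authors' deposited table lay 26.1 and 137 kb before the gene start, with log2 fold changes of 2.13 and 3.07, against 1.33 at the promoter (adjusted p = 0.00595). Inside the long gene body, sites assigned to the predicted gene Gm48320 had log2 fold changes of 2.94 and 2.52 in the authors' deposited table. Each was covered by 3 adult and 0 neonatal libraries.

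**Figure D2:**
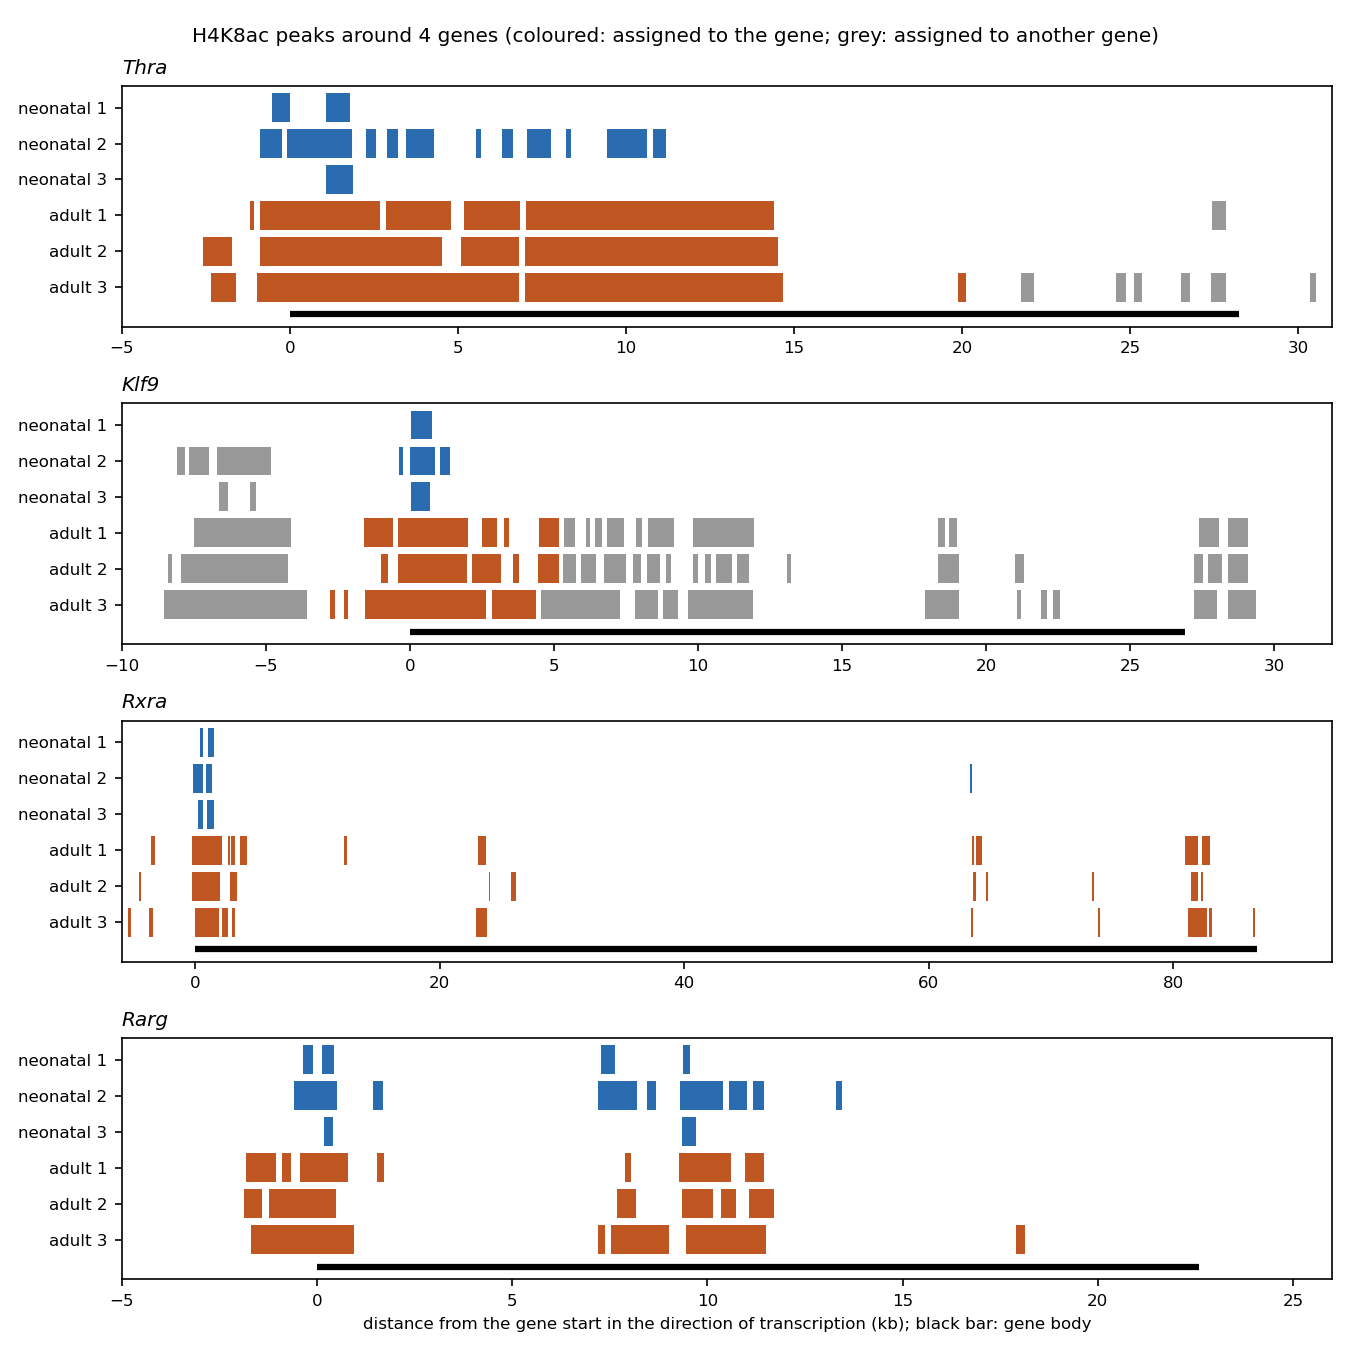
H4K8ac peaks (blocks) of the 6 libraries (rows) around Thra, Klf9, Rxra and Rarg, against the distance in kb from the gene start in the direction of transcription, with the gene body as a black bar. Coloured blocks were assigned to the gene and grey blocks to another gene. Adult peaks cover Thra to about 14.5 kb and much of Klf9, while at Rarg the same places are covered at both ages.

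Among the RXR genes, whose products pair with the other receptors, Rxra and Rxrb carried the mark at both ages and Rxrg hardly at all. Rxra (chr2:27676445-27763319) was covered over 0.704, 1.674 and 1.003 kb in neonatal and 6.907, 4.720 and 6.616 kb in adult libraries. The groups did not overlap, and the difference was 4.95 kb (exact permutation p = 0.1, adjusted p = 0.166). Promoter peaks made up 1.07 ± 0.407 kb (neonatal, SD, n = 3) and 3.36 ± 0.563 kb (adult, SD, n = 3) of this.

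Of the 3 members with an assigned intronic peak, Rxra alone was called. Intronic peaks assigned to another gene are not in this count. At Klf9 the microRNA gene Mir1192 received 2, 4 and 4 of them in adult libraries 1 to 3 and 0 in each neonatal library. At Thrb the predicted gene Gm48320 received 3, 1 and 3, against 0, 1 and 0. At Thra, adult peaks over the intronic peaks of neonatal library 2 were wide and classed as promoter. The intronic peaks of Rxra covered 0 kb in each neonatal library and 1.582, 1.387 and 1.105 kb in the adult libraries. Of 7499 genes with intronic peaks, 49.6% were called the same way. Adult peaks between 81.0 and 83.2 kb, near the 3′ end, were present in all 3 adult libraries and 0 neonatal ones. Some of them are among these intronic peaks and the others were annotated to exons. Its distal peaks were small, 0.055 kb in neonatal and 0.340 kb in adult libraries on average. Only their summed lengths overlapped between ages, with 0.165 kb in neonatal library 2 against 0.155 kb in adult library 2. The lengths did not overlap without neonatal library 2, without adult library 2 or with peaks of q-value under 0.005. The places differed: the neonatal peak, chr2:27774144-27774308, lay past the 3′ end of the gene, and the adult distal peaks lay before its start. At equal list length the promoter remained called, at 1.02 and 2.23 kb, and no intronic or distal peak was left.

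The authors' deposited table listed 4 Rxra sites, all higher in adult cells. Log2 fold changes in the authors' deposited table were 4.14 for the distal site 3.5 kb before the gene start (adjusted p = 3.02e-05), 1.64 for the promoter site (adjusted p = 0.000111) and 2.21 for the intronic site 23.4 kb inside (adjusted p = 0.00697). The promoter site was covered by peaks in all 6 libraries, and the distal and intronic ones in 2 adult libraries each and 0 neonatal ones.

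Rxrb (chr17:34031812-34038403) is a short gene between Slc39a7, which starts next to it, and the collagen gene Col11a2. Assigned peaks covered 0.369, 0.786 and 0.448 kb in neonatal and 1.173, 3.628 and 1.610 kb in adult libraries, a difference of 1.60 kb (exact permutation p = 0.1, adjusted p = 0.166). All adult values lay above all neonatal ones, and adult library 2 was the highest; without it the difference was 0.857 kb. The start-site peak of adult library 3, 2.149 kb wide, was assigned to Slc39a7, so the values depend on which neighbour received a peak. At equal list length adult library 3 had no Rxrb peak and the ages overlapped.

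Counted by position instead, over the gene and 3 kb on each side, peaks covered 12.8 ± 12.3% of the Rxrb window at the neonatal age and 57.5 ± 10.2% at the adult age (SD, n = 3 each). Both were the highest shares of the 10 genes. In adult libraries 1 to 3, peaks assigned to Col11a2 covered 4.863, 2.179 and 4.935 kb of this 12.6 kb window. Those assigned to Slc39a7 covered 0.744, 0.445 and 2.149 kb of it. In the authors' deposited table the site over the Rxrb start, assigned to Slc39a7, had a log2 fold change of 1.49 (adjusted p = 0.000865), and the site assigned to Rxrb, 2.4 kb inside, 2.20 (adjusted p = 0.00838). By the authors' p-value the strongest neonatal peak of any member was here: the start-site peak ranked 142 of 31189 in neonatal library 2.

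Rxrg (chr1:167598362-167639623) had 1 peak in all, 0.326 kb at its start in neonatal library 2. The other 2 neonatal and all 3 adult libraries had none, and no site of the authors' deposited table was assigned to it.

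Of the retinoic acid receptor genes, 0 of 3 were called at either age in the full lists. Rara (chr11:98927800-98974942), which encodes the broadly expressed retinoic acid receptor alpha, was covered over 0.806, 7.205 and 0.630 kb in neonatal and 3.806, 2.750 and 4.174 kb in adult libraries. Neonatal library 2 lay above every adult library and the other neonatal libraries below them. The difference of 0.696 kb (exact permutation p = 0.9, adjusted p = 1) was within the spread, and without neonatal library 2 it was 2.86 kb and the ages did not overlap.

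Rara also had intronic peaks at both ages, of 0.758 ± 0.576 kb at the neonatal age and 0.503 ± 0.326 kb at the adult age (SD, n = 3 each). All but 1, a peak of adult library 1 near the gene start, began between 35.8 and 41.8 kb inside the gene. At equal list length Rara peaks were left in neonatal libraries 1 and 3, at 0.251 and 0.630 kb, and in 0 adult libraries. No site of the authors' deposited table was assigned to Rara.

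Rarb (chr14:16430839-17082331) encodes retinoic acid receptor beta, itself a known target of retinoic acid through the repeat printed above. It had a promoter peak of 0.226 and 0.249 kb in neonatal libraries 1 and 2 and of 0.577 and 0.149 kb in adult libraries 1 and 2, and none in the third library of either age. The groups overlapped (difference 0.0837 kb, exact permutation p = 0.9). The repeat spans 17 bases at chr14:16575513-16575529, from 53 to 37 bases before that transcript start. It lay under the peak of adult library 1 and under no other peak: on the genome the neonatal peaks ended at 16575469 and 16575457, on the transcribed side of the repeat, and the peak of adult library 2 began at 16575668, on its other side. No site of the authors' deposited table was assigned to Rarb.

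Rarg (chr15:102234938-102257522), the gene of retinoic acid receptor gamma, had peaks in all 6 libraries at 2 places, its start and an inner start region from about 7 to 12 kb inside the gene. They covered 1.098, 4.556 and 0.592 kb in neonatal and 4.380, 4.513 and 6.571 kb in adult libraries. Neonatal library 2 lay within the adult range and the other neonatal libraries below it, and the difference of 3.07 kb had an exact permutation p = 0.3 (adjusted p = 0.442). Within 3 kb of the gene start alone, by position, the ages did not overlap and the difference was 1.69 kb.

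Rarg was the member whose direction depended most on list length. Its strongest peak ranked 3408, 4745 and 5031 in the neonatal lists and 7910, 13770 and 11220 in the adult lists. With 7353 peaks per list it kept 0.750, 3.208 and 0.592 kb in the neonatal libraries and nothing in the adult libraries. It was then called higher in neonatal libraries (difference −1.52 kb, exact permutation p = 0.1, adjusted p = 0.256). This cut kept the whole list of neonatal library 3 but 7353 of the 72278 to 77002 peaks of the adult lists. The adult Rarg peaks it removed had −log10 q-values of up to 24.4, so the call does not show less mark in adult cells. The authors' deposited table, in contrast, gave its start site as higher in adult cells, with a log2 fold change of 1.13 (adjusted p = 0.0106), below the median of 1.87 over all promoter sites higher in adult cells.

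**Figure D3:**
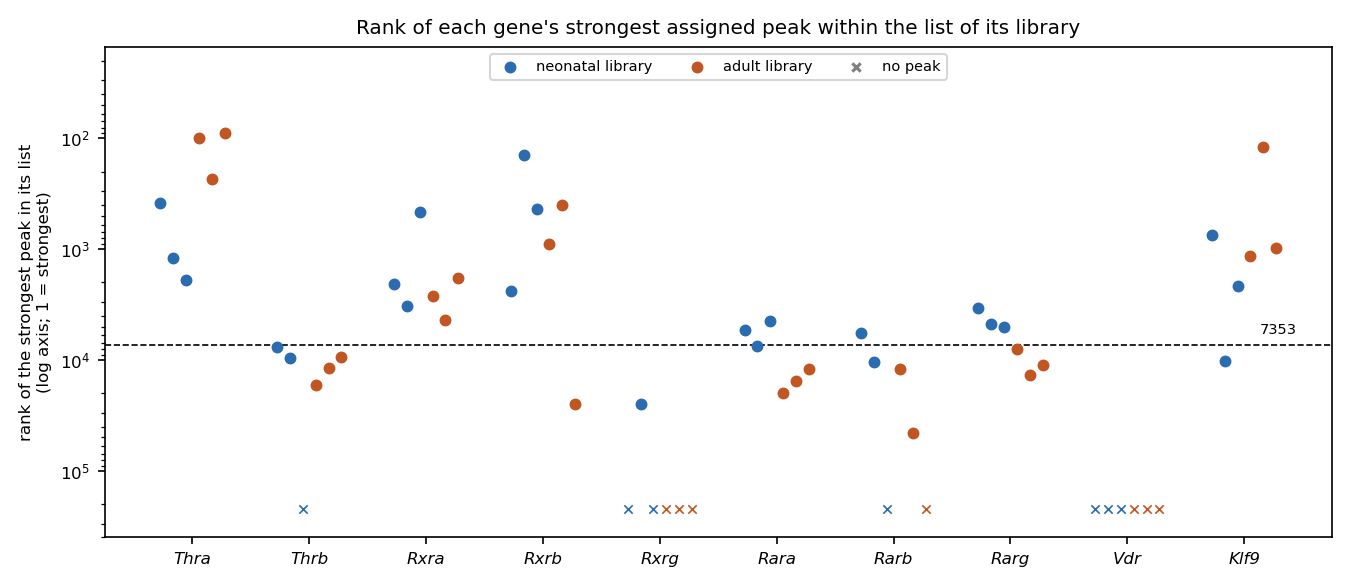
Rank of the strongest peak assigned to each gene within the list of its own library (log axis, 1 is the strongest by the authors' p-value), with crosses for libraries without a peak and a dashed line at rank 7353, the length of the shortest list. Thra and Klf9 peaks lie above the line in all adult libraries, while the Rara and Rarg peaks of the adult libraries all lie below it.

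Vdr (chr15:97854427-97908296) encodes the vitamin D receptor. No peak in any of the 6 lists was assigned to it, and none overlapped the gene or the 3 kb on either side, so its covered share was 0% in every library. The authors' deposited table had no site within 10 kb of it. Lists of peaks hold no values below the caller's limit, so a weaker mark at Vdr was not detectable from them.

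Klf9 (chr19:23141226-23168129) is a direct target of the thyroid hormone receptor and is known to act in oligodendrocyte differentiation. Its assigned peaks, all in the promoter class, covered 0.729, 1.354 and 0.652 kb in neonatal and 4.807, 4.569 and 6.045 kb in adult libraries. The lowest adult value lay far above the highest neonatal one. The difference was 4.23 kb (exact permutation p = 0.1, adjusted p = 0.166).

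The peak over the Klf9 start region measured 0.729, 0.862 and 0.652 kb in the neonatal libraries and 2.441, 2.388 and 4.203 kb in the adult libraries. The adult peaks reached from before the sequence printed above into the gene. At equal list length Klf9 remained called, with 0.460 kb in neonatal and 3.01 kb in adult libraries. Its promoter site in the authors' deposited table, chr19:23141251-23141650, had a log2 fold change of 2.08 (adjusted p = 2.55e-06).

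Most of the adult mark in the Klf9 window, the gene and 3 kb on each side, was assigned to another name. The microRNA gene Mir1192 lies inside the Klf9 gene body, and it received 11, 16 and 10 peaks (6.526, 6.692 and 9.916 kb) of the Klf9 window in adult libraries 1 to 3 and 0 in each neonatal library. By position, peaks covered 2.77 ± 1.17% of the Klf9 window at the neonatal age and 39.1 ± 8.18% at the adult age (SD, n = 3 each), and the difference was 11.9 kb instead of 4.23 kb. Mir1192 received 6 sites of that window in the authors' deposited table, all higher in adult cells, up to a log2 fold change of 3.88 at 27.8 kb from the Klf9 start, just past its end (adjusted p = 8.58e-08). A region 5.5 kb before the Klf9 start, assigned to 2410080I02Rik, was covered in neonatal libraries 2 and 3 and in all adult libraries, and had a log2 fold change of 2.39 in the authors' deposited table (adjusted p = 1.05e-06).

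**Figure D4:**
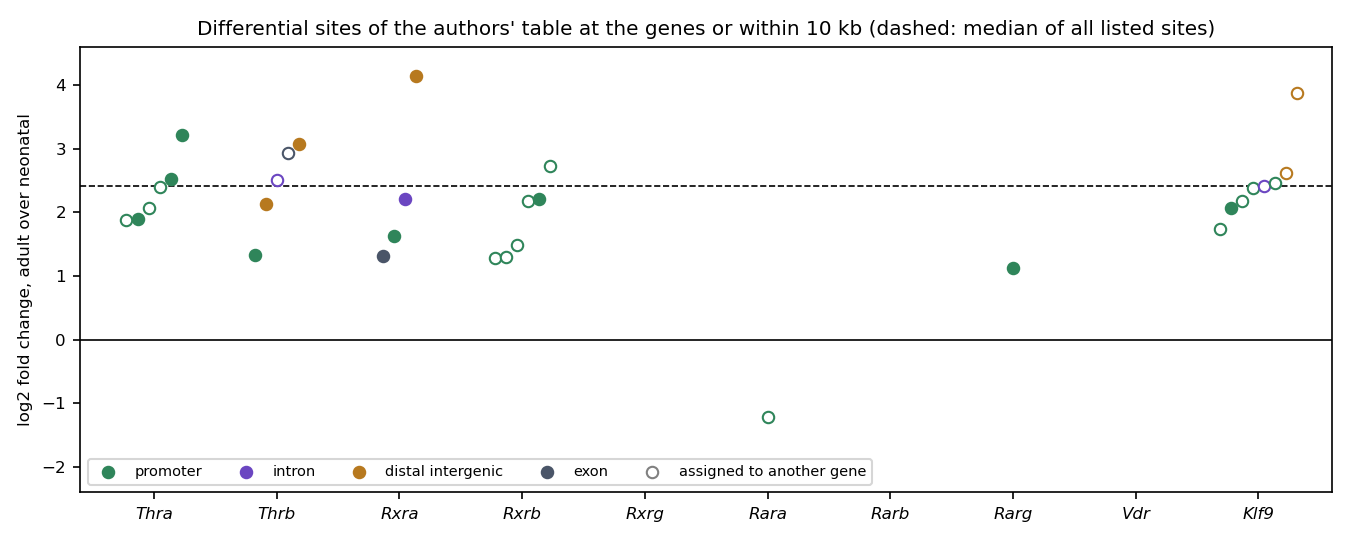
Log2 fold change, adult over neonatal, of each site in the authors' deposited table that was assigned to a member (filled) or lies within 10 kb of it but was assigned to another gene (open), coloured by position class. The dashed line is the median of all listed sites, 2.41, and only the site near Rara lies below 0.

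Across the members, the authors' deposited table held 13 assigned sites, 3 each for Thra and Thrb, 4 for Rxra and 1 each for Rxrb, Rarg and Klf9. All 13 were higher in adult cells and 0 higher in neonatal cells. Of all 43888 sites listed in the authors' deposited table, 43634 had more of the mark in adult cells and 254 more in neonatal cells. The direction of the members was thus that of the listed sites as a whole. Of the 54838 sites that the authors' deposited table implies were tested, these are 79.6% and 0.463%. How many tested but unlisted sites lay at the members is not known. How the authors normalised the reads was not given in the sources used here.

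Markers of other cell types were measured in the same way, by promoter peaks. OPC markers had a peak for 8 of 8 genes in every neonatal library and for 8, 7 and 7 in the adult libraries. Their summed length was 3.96 to 22.4 kb in neonatal and 37.4 to 54.5 kb in adult libraries. Cspg4, Olig1, Olig2 and Sox10, 4 of the 8, were called higher in adult libraries, beside 60.1% of all genes with promoter peaks. The adult minus neonatal difference was −0.953 kb for Pdgfra, −0.503 kb for Ptprz1 and −0.192 kb for C1ql1. At equal list length 3 OPC markers were called higher in adult libraries and 2, Pdgfra and Ptprz1, in neonatal libraries. All 8 markers of myelinating oligodendrocytes had one in each adult library, against 0, 3 and 1 in the neonatal libraries, with a summed length of 38.9 to 59.2 kb in adult and 0 to 1.18 kb in neonatal libraries. These moved in the same direction as Thra, Rxra and Klf9, and their part in that result was not tested. Neuron markers ran from 0 to 5 genes in neonatal and 3 to 5 in adult libraries (0 to 2.04 and 3.13 to 5.11 kb; Snap25 and Stmn2 at 0), and astrocyte markers from 1 to 6 and 3 to 5 (0.159 to 5.62 and 4.61 to 8.60 kb; Aqp4 at 0). Microglia markers had 0 genes with a peak in neonatal and 1 in adult libraries (0 and 0.579 to 1.07 kb; P2ry12, Csf1r, Tmem119, Itgam, C1qa, Aif1 and Trem2 at 0). Endothelial markers had 0 to 1 and 2 (0 to 0.330 and 0.659 to 1.66 kb; Cldn5, Cdh5, Flt1, Tek and Ly6c1 at 0), and fibroblast and mural markers 0 to 3 and 1 to 2 (0 to 0.881 and 0.527 to 0.545 kb; Dcn, Lum, Rgs5, Acta2 and Vtn at 0).

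Genes that handle the ligands were read by their promoter peaks. Of 7 genes of thyroid hormone transport and metabolism, 5 had no promoter peak in any library, the deiodinase genes Dio2 and Dio3 among them. Of 13 retinoid genes, 4 had no promoter peak in any library and 2, Cyp26b1 and Rdh10, were called higher in adult libraries. Among all genes with a promoter peak in some library, 60.1% were. Cyp26b1, which encodes an enzyme that breaks down retinoic acid, had 0 kb in each neonatal library and 5.238, 3.317 and 3.201 kb in the adult libraries. Rdh10, whose product oxidises retinol, had 0, 1.665 and 0 kb against 2.520, 2.540 and 2.955 kb. Of 5 vitamin D genes, 3 had no promoter peak in any library and 1 was called higher. This was Cyp27a1, a sterol hydroxylase gene, at 0 kb in neonatal and 2.07 kb in adult libraries on average. In these 3 lists 0 genes were called higher in neonatal libraries. At equal list length only Rdh10 of these lists was called higher in adult libraries, and Cyp26b1 and Cyp27a1 were not. The background was then 35.0% of 9904 genes with promoter peaks.

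Most coregulator genes carried the mark at both ages. Of 11, 9 were called higher in adult libraries, where 60.1% of all genes were, and 1, Ncor1, higher in neonatal libraries, where 0.399% were, with a list median of 1.00 kb beside 0.608 kb over all genes with promoter peaks. Tbl1x, a subunit of the corepressor complex, differed by 1.89 kb and the coactivator gene Ncoa3 by 1.27 kb. At equal list length 7 of the 11 were called higher in adult libraries, beside 35.0% of genes, with Ncoa3 among them and Tbl1x not. Ncor1 was again called higher in neonatal libraries, beside 4.67% of genes. The call for Ncor1, a corepressor gene, flips by position: the adult peak at its start, 2.124, 2.391 and 2.403 kb wide, was assigned to the neighbouring Pigl, against 0.483, 1.805 and 0.657 kb in the neonatal libraries.

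Of 7 other partners of RXR 5 were called higher in adult libraries, beside 60.1% of all genes, with Nr4a1 first (1.55 kb in neonatal and 8.67 kb in adult libraries on average), then Ppard (0.280 and 2.94 kb) and Nr4a2 (0.774 and 2.13 kb). Of 10 genes known to respond to these hormones, 3 had no promoter peak in any library and 4 were called higher. The 60.1% counts only genes with a promoter peak in some library. Among those called were Mbp, which encodes myelin basic protein (1.12 and 14.7 kb), the corepressor gene Hr (0.795 and 5.21 kb) and the clock output gene Dbp (0.992 and 3.96 kb). Of both lists 0 genes were called higher in neonatal libraries. At equal list length 2 of the RXR partners, Ppard among them, were called higher in adult libraries, and Nr4a1 and Nr4a2 were not. Of the responding genes 3 were then called, namely Mbp, Hr and Dbp. The background was 35.0% of 9904 genes with promoter peaks. The retinoic acid target Cyp26a1 and the vitamin D target Cyp24a1 had no promoter peak in any library.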

How the data were processed

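H4K8ac ChIP-seq of sorted mouse OPCs was analysed in 6 libraries, 3 per age, grouped by the labels. Per the submitters' processing notes, the tools used were Trim Galore, Bowtie2 2.4.5, SAMtools, deepTools, MACS2, DiffBind and ChIPseeker, with build GRCm38. Per the file headers, each deposited peak carries a score, a signal value read as fold enrichment, and p-value and q-value as −log10, and was annotated to its nearest gene. These are the authors' own values, used only to rank or describe peaks within a list. The largest q-value per list was 0.0427 to 0.0489. The authors' deposited table of differential sites has no header. The authors made its log2 fold changes by a normalisation not given in the sources used here, and deposited them with raw and adjusted p-values. Its direction is also unnamed: positive sites were taken to be those with more mark in adult cells, since 99.99% of positive sites overlapped adult peaks and 27.9% neonatal peaks, and 98.4% of negative sites overlapped neonatal peaks and 37.0% adult peaks. The number of tested sites was implied by the Benjamini-Hochberg adjustment.

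Bases covered by assigned peaks were summed per gene, class and library and compared between ages by a two-sided exact permutation test over 20 arrangements, adjusted over all genes (Python 3.11.15, numpy 2.4.6, pandas 2.3.3, scipy 1.17.1; tested on simulated data). A site took the gene and class of the peak that overlapped it most. Coordinates count from 1. All 10 members are described; of the deposited sites, those of smallest p-value per class were named, and the further Thra, Klf9, Thrb and Rxrb sites were chosen after their values were seen. Pathway genes were named where called by promoter peaks, at most 3 per list by size of difference. Some genes of the pathway and marker lists are not reported here by name. Members and lists were chosen with earlier results of these data known. Alternatives were a q-value limit of 0.005, equal list length, merging of peaks within 1000 bp, assignment by position (gene and 3000 bp on each side), a replicate block and leaving out each library.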

Additional observations from a re-analysis of the deposited data

How the results depend on the processing

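Of 225 recomputed values, 191 kept their direction and their side of the call. The 191 include all 23 values of the replicate block, which can lose no call, and only 7 of those at equal list length. With the 7353 strongest peaks per list, 3 members were called higher in adult and 1 in neonatal libraries, and the ratio of peak numbers turned to 0.567. The adult minus neonatal difference then turned to −0.294 kb for Rara (promoter peaks −0.129 kb), −0.0753 kb for Rarb and −1.52 kb for Rarg, all peaks or promoter peaks. By position, the Rara promoter difference was −0.140 kb. The cause of these turns was not tested. Leaving out single libraries gave 5 to 7 members called higher in adult libraries and peak ratios of 1.65 to 3.39. Differences then ran from −0.429 to 2.86 kb for Rara (below 0 without neonatal library 1 or 3), from −0.0838 to 0.205 kb for Rarb, all or promoter peaks (below 0 without adult library 1), and from −0.513 to 0.0557 kb for Rara intronic peaks (above 0 without neonatal library 2). Of the sites assigned to members in the authors' deposited table, 13 were higher in adult cells: 8 at an adjusted p-value limit of 0.005 and 22 by position. With 10 kb on each side, an alternative chosen after seeing the data, there were 28, and 1 site was higher in neonatal cells.

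Same-numbered libraries of the 2 ages did not deviate together (r = −0.0531, 0.00287 and 0.0720 over 18548 genes), so the numbers were not taken as pairs. With the replicate block the counts were 5 and 0 members, the peak ratio 2.25 and the smallest possible p-value 0.25. Full pairs leave the ratio as it is and can lose no call, so this is no sign of stability. Read depth is not in the files, and lists of such unequal length limit every comparison of covered bases between ages.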

Other observations

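Only 1 site of the authors' deposited table within 10 kb of a member was higher in neonatal cells. It lies at chr11:98982284-98982683, past the 3′ end of Rara and 54.7 kb from its start, and belongs to the promoter of Gjd3, a connexin gene. The authors' deposited table gives it a log2 fold change of −1.22 (adjusted p = 0.0396), and 3 neonatal libraries and 1 adult library had a peak over it.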
